A study of Mus musculus with 4 samples.

Results

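The heat shock proteins and their J-domain partners are the molecular chaperones that fold new proteins and refold damaged ones. The members described here are the genes of the deposited comparison table whose symbols mark them as Hspa, Hspb, Hsp90, Hspd1, Hspe1, Hsph1 or another Hsp family entry, or as Dnaja, Dnajb or Dnajc. There were 60 of them among 10716 genes, 22 with Hsp symbols and 38 with Dnaj symbols. By their known location 31 belonged to the cytosol and nucleus, 14 to the endoplasmic reticulum (ER), 9 to mitochondria, and 6 to other places or to none that was assigned. The rule goes by symbol, so it also took Hspg2, the matrix proteoglycan perlecan, and Hspb11, an intraflagellar transport protein, neither of which is a chaperone. Of the 60 members 59 were at 1 CPM (counts per 1000000 of the scaled library) or more in every library, and 13 further family genes, among them Hspb1, were not among the genes of the table.

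RNA was sequenced from fetal liver erythroid cells of C57BL/6 mice at embryonic day 14.5, sorted for the yellow fluorescent protein of the R26eYFP reporter. The 2 knockout-labelled libraries (replicates 1 and 2) are described as Epor-Adar knockouts, with Epor-Adar / + as the stated genotype, and the labels spell out neither the deleting transgene nor the number of deleted alleles. Epor is the erythropoietin receptor gene, whose expression marks the erythroid lineage. The 2 control libraries (replicates 3 and 8) are given as wild type, and the labels do not say whether each library came from a separate embryo. The comparison asks which transcripts differ when erythroid cells lose Adar, which encodes the RNA-editing enzyme ADAR1. Throughout, levels are given for knockout-labelled replicates 1 and 2 first, then for control replicates 3 and 8.

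HSP70 proteins bind exposed hydrophobic stretches of a client and release them in cycles of ATP hydrolysis. J-domain proteins deliver the client and start that hydrolysis, while HSP110 proteins exchange the nucleotide. HSP90 proteins act later on signalling proteins, small heat shock proteins hold unfolded clients, and the HSP60 and HSP10 ring folds proteins in the mitochondrial matrix. The transcription factor HSF1 drives the heat-inducible genes through the heat shock element, and the ER chaperones are driven through the ER stress element. In erythroid cells HSP70 is known to protect the transcription factor GATA1 from caspase cleavage, and mitochondrial chaperones serve haem and iron-sulphur cluster assembly.

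Total counts ran from 28356401 to 44016809 per library. Adar had 67.1 and 102 CPM against 50.9 and 46.9 in the controls, so its count was not lower where it is labelled as deleted. These counts cover the whole gene and cannot show a loss of some exons, so whether the deletion took place was not tested. Counts of Y-linked genes did not match the labelled sex of 3 libraries out of 4. Knockout-labelled replicate 2 had 0.0778 CPM summed over 4 Y-linked genes, against 382 in replicate 1 and 203 and 226 in the controls. Sex thus cannot be told apart from other differences within the knockout-labelled pair, or between replicate 2 and the controls. Of the knockout-labelled pair, replicate 1 was the one more distant from the controls in 8864 of all genes (82.7%). Erythroid markers were read in every library. The transcription factor gene Klf1 had 204 and 520 CPM against 689 and 533, lowest in knockout-labelled replicate 1, and the globin gene Hbb-b1 ran from 13845 to 26758 CPM.

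Sequences before the transcription start are shown for the members on which the results turn, because they carry the elements named above. Promoter windows came from RefSeq on GRCm38.p6 (250 bases before to 50 after the start), were found by symbol for 49 of the 60 members, and were placed on NCBIM37, the build of the deposited table, by exact match. The first pair shows how alike the stress-inducible HSP70 genes Hspa1a and Hspa1b are, with the letters GAANNTTC of the heat shock element in capitals, and each is the 250 bases before the start on the minus strand of chromosome 17 (chr17:35109102-35109351 for Hspa1a and chr17:35096184-35096433 for Hspa1b).
Hspa1a: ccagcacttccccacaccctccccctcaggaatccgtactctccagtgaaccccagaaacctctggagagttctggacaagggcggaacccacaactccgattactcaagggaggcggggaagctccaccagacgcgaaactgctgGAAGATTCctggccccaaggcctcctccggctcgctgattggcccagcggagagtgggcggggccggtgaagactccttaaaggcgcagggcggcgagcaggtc
Hspa1b: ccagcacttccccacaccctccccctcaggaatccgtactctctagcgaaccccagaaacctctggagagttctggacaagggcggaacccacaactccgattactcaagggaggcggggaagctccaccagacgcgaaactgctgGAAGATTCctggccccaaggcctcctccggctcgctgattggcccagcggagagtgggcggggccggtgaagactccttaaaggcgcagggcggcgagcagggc

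The promoter stretches of that pair were identical at 247 of 250 bases, and the 3 substitutions from Hspa1a to Hspa1b were C44T, T47C and T249G, counted from 1 at the 5′ end. Their coding sequences were identical at 1918 of 1929 aligned positions (99.4%), with 638 identical bases in a row, so reads from one can be counted for the other and their separate values are uncertain. By contrast Hspa1a and the constitutive cytosolic HSP70 gene Hspa8 were 74.1% identical, with at most 22 identical bases in a row. The element lay 104 bases before the start in both, and GAANNTTC was found in 7.86% of all 32851 windows on either strand and in 11 of the 49 members with a window.

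The longer heat shock element, in which GAANNTTC is followed after 2 bases by another GAA on either strand, was found in 0.603% of all windows and in 4 of the 49 members, namely Dnajb6, Hspd1, Hspe1 and Hsph1. The searches overlap, since the longer element contains the shorter. They took exact letters only, so a copy with a mismatch was not counted or marked, in Hspa1a and Hspa1b as elsewhere. Hspd1 and Hspe1, which encode the mitochondrial HSP60 and HSP10, share 1 such stretch between their divergent starts, shown here on the plus strand (chr1:55144897-55144926, NCBIM37) with the overlapping units in capitals.
Hspe1 and Hspd1: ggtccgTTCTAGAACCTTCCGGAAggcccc

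The ER stress element, CCAAT and CCACG with 9 bases between them on either strand, was found in 0.119% of all windows and in 3 of the 49 members. These were Hspa5, the ER HSP70 known as BiP, Hsp90b1, the ER HSP90 known as GRP94, and Dnajc3, an ER J-domain protein that also inhibits the kinase PERK. The 4 stretches are shown because these 3 genes carry the same element and had unlike values, with the element in capitals, in the order chr2:34627540-34627569 (plus), chr10:86168377-86168406 (minus), chr10:86168273-86168302 (plus) and chr14:119337044-119337073 (plus).
Hspa5: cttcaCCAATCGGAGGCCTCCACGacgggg
Hsp90b1, distal: caagcCCAATCGCAAGGAGCCACGcttcgg
Hsp90b1, proximal: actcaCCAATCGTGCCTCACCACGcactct
Dnajc3: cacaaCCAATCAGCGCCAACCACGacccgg

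The Hspa5 stretch lies inside the gene model that NCBIM37 annotation gives for Hspa5, and the stretch of Hspe1 and Hspd1 lies inside that of Hspd1, while those of Hsp90b1 and Dnajc3 lie upstream of their genes. The ER stress element began 65 bases before the start in Hspa5 and 105 in Dnajc3, and at 212 and 107 bases in Hsp90b1. A further search, for TGATGNAA, the core of the element bound by ATF4 with C/EBP proteins, found it in 3.97% of all windows and in 1 of the 49 members, Hspa14. These shares of all windows count windows, while members are counted as genes. Of the 7286 table genes with a window, 6.89% had GAANNTTC and 0.631% the longer heat shock element. The ER stress element was in 0.151% of them and TGATGNAA in 2.70%. The 11 members with no entry were Dnajc2, Dnajc5, Dnajc11, Dnajc12, Dnajc18, Dnajc30, Hsp90aa1, Hsp90ab1, Hspa8, Hspa9 and Hspa13.

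No chaperone gene passed in edgeR's quasi-likelihood test, where the Benjamini-Hochberg adjusted p over all genes ran from 0.302 (Hspa12b) to 0.993 (Hspa4). That count of 0 of 60 stands against 0.103% of all genes called. At an unadjusted p below 0.05 there were 7 members (11.7%), 6 higher and 1 lower, against 11.9% of all genes (9.82% higher and 2.08% lower), so the share of members was near the background. Those 7 were Hspa12b, lower, and Dnajb9, Hspb8, Hspa1a, Hspg2, Dnajc28 and Hspa5, higher. Hspb8 entered the table by its level in the knockout-labelled libraries, so its direction was favoured in advance, here and in the calls below. DESeq2 called 3 members (3.49% of all genes), the likelihood ratio test of edgeR called 4 (3.26%), and limma-voom called 0 (0.0747%). The smallest adjusted p of a member in the authors' deposited table was 0.339, for Hspa12b, where 0.0747% of all genes were below 0.05. The limma-voom fit gave the authors' adjusted p for Dnaja1 (0.868) and Dnajb1 (0.637), so these 2 results are not independent.

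Without knockout-labelled replicate 2 the test called 16 members, 9 higher and 7 lower, against 32.6% of all genes. The 9 were Dnajb9, Hspb8, Hspa5, Dnajc5, Dnajc1, Hspb6, Hspa9, Hsp90b1 and Hspe1, and the 7 were Dnajb3, Hspa12b, Dnajc30, Dnajc11, Dnajc10, Dnajc14 and Dnajc16. With 1 knockout-labelled library left, that fit takes its spread from the 2 controls and from moderation across genes, and assumes that the lone library varies like the controls. The same holds for the single-gene values given without either replicate. The test called 0 members without replicate 1 (1.33% of all genes), without control replicate 3 (0.383%) and without control replicate 8 (0.252%), shares at which a count of 0 in 60 is near the background. Replicate 1 was the more distant of the pair in 53 of the 60 members (88.3%, against 82.7% of all genes). The exceptions were Dnajb11, Dnajc4, Dnajc7, Dnajc9, Dnajc25, Dnajc28 and Hspg2.

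**Figure D1:**
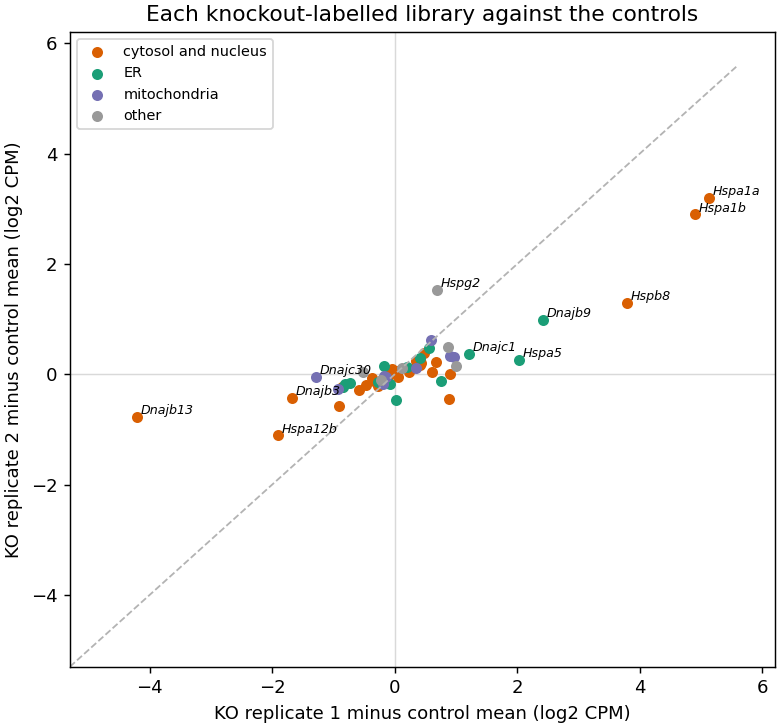
Difference of each knockout-labelled library from the control mean in log2 CPM for the 60 members, replicate 1 on the horizontal and replicate 2 on the vertical axis, coloured by compartment, with the dashed line at equal differences. Apart from Hspg2, the genes named in the plot lie farther from 0 on the horizontal than on the vertical axis, as do 53 of the 60 members.

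The median log2 fold change of the 60 members was 0.03, with the median of all genes at 0.00. It was 0.03 in the cytosol and nucleus, 0.08 in the ER and -0.09 in mitochondria. Members with a log2 fold change of 1 or more in size numbered 8 of 60, against 939 of all 10716 genes. Within 0.5 of 0 were 38 of 60 members, against 7390 of all 10716 genes. Groups that did not overlap were seen in 35 of 60 members (58.3%, against 54.0% of all genes), 20 with both knockout-labelled libraries above both controls (27.4% of all genes) and 15 below (26.7% of all genes). Median log2 fold changes were 0.35 for the 22 Hsp genes and -0.10 for the 38 Dnaj genes, a difference that was not tested. Measured from the control mean in log2 CPM, replicate 1 alone gave Hsp and Dnaj medians of 0.65 and -0.12. Replicate 2 alone gave 0.11 and -0.04. For control replicate 8 minus control replicate 3 the Hsp median was 0.23, so the controls differed too, and the Dnaj median was 8.5e-05. That is a distance between 2 libraries and not from a mean, so its size is not like for like with those above. The Hsp genes include Hspg2 (1.19) and Hspb11 (0.71), which are not chaperones.

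**Figure D2:**
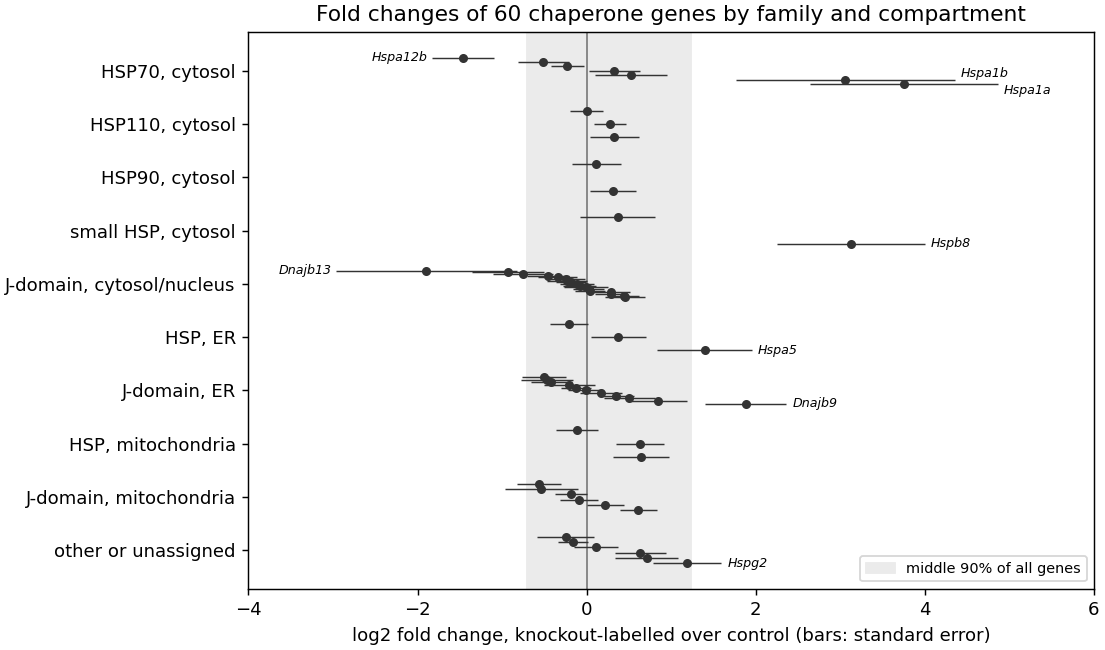
Fitted log2 fold change of each of the 60 members, knockout-labelled over control, by family and compartment, with bars for the standard error and grey for the middle 90% of all genes. The members named in the plot are the 8 with a log2 fold change of at least 1 in size, from Dnajb13 (-1.89) to Hspa1a (3.76).

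The stress-inducible pair Hspa1a and Hspa1b had the highest log2 fold changes of the 7 cytosolic HSP70 genes. Hspa1a (ENSMUSG00000091971, chr17:35106144-35109069) had 390 and 102 CPM against 3.73 and 32.4 in the controls. Both knockout-labelled libraries were above both controls, yet replicate 1 held 3.82 times the level of replicate 2 and control replicate 8 held 8.69 times that of control replicate 3. In edgeR its log2 fold change was 3.76 with SE 1.11 (adjusted p = 0.355). Within bulk RNA, more cells with induced HSP70 and more transcript per cell cannot be told apart. The near-identical Hspa1b (ENSMUSG00000090877, chr17:35093381-35096183) had 436, 109, 3.41 and 61.6 CPM in the same order. The libraries ranked as for Hspa1a, with which it can share reads, and the log2 fold change was 3.06 (SE 1.29, adjusted p = 0.433).

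Leaving out control replicate 8 moved the log2 fold changes to 6.03 for Hspa1a and 6.30 for Hspa1b, and leaving out knockout-labelled replicate 1 moved them to 2.47 and 1.73. Neither gene passed in any of these fits. The likelihood ratio test called Hspa1a (adjusted p = 0.0194, with a range of 0.0194 to 1.0 over the 13 alternatives). The neighbouring Hspa1l (chr17:35109648-35116229), a testis-enriched HSP70 that starts 578 bases from Hspa1a in the other direction, had 6.26 and 5.57 CPM against 4.13 and 5.28, and it did not pass.

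Hspa8 (chr9:40609067-40613283), the constitutive HSP70 that also uncoats clathrin vesicles, had 1011 and 1556 CPM against 1797 and 1862 in the controls. Both were below both controls, with the lowest level in the library where Hspa1a and Hspa1b were highest. The log2 fold change was -0.51 (SE 0.30, adjusted p = 0.461).

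Levels of these 3 genes can be set side by side only per length, here as CPM per kb of annotated exon. Hspa1a and Hspa1b together had 289 and 73.8 CPM per kb against 2.49 and 33.1 in the controls. Hspa8 had 243 and 374 against 432 and 448. The inducible pair thus made up 54.3% and 16.5% of the level of the 3 genes in the knockout-labelled pair, against 0.573% and 6.87% in the controls. Their sum varied less, at 532 and 448 CPM per kb against 435 and 481. Reads shared by the near-identical Hspa1a and Hspa1b may have been dropped or counted for both, as their treatment is not given. The summed level of that pair, its shares and the sum of the 3 genes are therefore uncertain too.

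**Figure D3:**
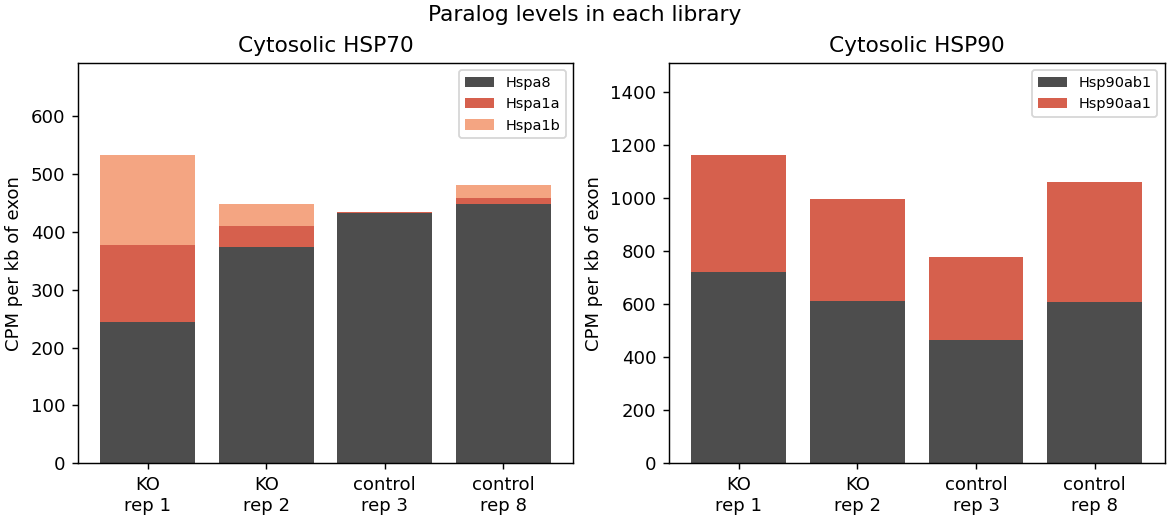
Stacked levels in CPM per kb of exon in each of the 4 libraries, with Hspa8, Hspa1a and Hspa1b on the left and Hsp90ab1 and Hsp90aa1 on the right. The red HSP70 segments fill 54.3% of the bar in knockout-labelled replicate 1 and 0.573% in control replicate 3, while the Hsp90aa1 share stays between 38.0% and 42.7%.

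The other HSP70 members of the cytosol were low or even. Hspa12b (chr2:130953016-130972057), a divergent HSP70 known from endothelial cells, had 2.25 and 3.97 CPM against 8.38 and 8.83 in the controls. Its groups did not overlap, and its log2 fold change was -1.46 (SE 0.37, adjusted p = 0.302), the smallest p of the 60 members. DESeq2 (adjusted p = 0.0208) and the likelihood ratio test (0.0383) called it, as did the fit without knockout-labelled replicate 2 (0.00229), and over the 13 alternatives the adjusted p ran from 0.00229 to 0.858. Hspa14, a ribosome-associated HSP70, had 94.3 and 111 against 114 and 126 CPM, and the testis-enriched Hspa2 stayed between 2.18 and 4.31 CPM in every library.

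In the controls cytosolic HSP90 was the most abundant chaperone per length. Hsp90ab1, the constitutive form, ranked first in the controls at 466 and 607 CPM per kb, above both values of Hspa8 (432 and 448). Hspa8 ranked second. Hsp90aa1, the stress-inducible form, ranked below it at 312 and 453, a range that overlaps that of Hspa8. Hsp90ab1 had 2159 and 1833 CPM against 1399 and 1821 in the controls, at a log2 fold change of 0.31 (with SE 0.27, adjusted p = 0.573). Hsp90aa1 had 1736 and 1519 against 1225 and 1781, and its groups overlapped (0.11, SE 0.29, adjusted p = 0.846). The share of Hsp90aa1 in the pair was 38.0% and 38.7% against 40.1% and 42.7% in the controls.

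The 3 HSP110 genes, nucleotide exchange factors of HSP70, had log2 fold changes between 0.00 and 0.33. Hsph1, the heat-inducible member, had 242 and 162 CPM against 133 and 189, so that control replicate 8 lay between the knockout-labelled libraries (adjusted p = 0.566). Hspa4 had 248 and 230 against 220 and 256 (log2 fold change 0.00, SE 0.20), and Hspa4l had 120 and 105 against 97.3 and 88.8.

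Of the small heat shock proteins, Hspb8 and Hspb6 were in the table, and Hspb1 was not. Hspb8 (chr5:116858500-116872873), which works with the HSP70 cofactor BAG3 in autophagy of damaged proteins, had 7.93 and 1.35 CPM against 0.471 and 0.570 in the controls. These were 243 and 52 counts against 13 and 27, and as both controls were below 1 CPM, the gene entered the table by its level in the other libraries. A gene that enters this way is favoured in advance to be higher there, so its p-values are no support for a rise. Its log2 fold change was 3.13 (SE 0.88, adjusted p = 0.348), or 1.35 without replicate 1. DESeq2 gave an adjusted p of 0.00703 and the likelihood ratio test 0.0179, and over the 13 alternatives it ran from 0.000152 to 0.897. Hspb6 had 19.0 and 7.46 CPM against 10.8 and 9.65, with overlapping groups.

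Cytosolic and nuclear J-domain genes numbered 17 and had a median log2 fold change of -0.11. Dnajb1, the main heat-inducible partner of HSP70 known as HSP40, had 107 and 132 CPM against 164 and 117 in the controls. It was thus not high where Hspa1a was high, and its groups overlapped (log2 fold change -0.23, SE 0.24, adjusted p = 0.629). Dnaja1, its class A counterpart, had 163 and 172 against 160 and 195 (-0.08, SE 0.20, adjusted p = 0.839). Dnaja4 had 228 and 214 against 154 and 172, with groups that did not overlap (0.44, SE 0.19, adjusted p = 0.433).

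Dnajb6, an inhibitor of polyglutamine aggregation, had 344 and 252 CPM against 237 and 197, both above the controls, and Dnajb4 had 219 and 184 against 185 and 144. Dnajb13 (chr7:107651527-107663469), a protein of the axonemal radial spoke in cilia and sperm, had 1.5 and 16.9 against 53.2 and 15.6 CPM. Knockout-labelled replicate 2 lay within the controls, and the log2 fold change of -1.89 (SE 1.07, adjusted p = 0.456) was -1.02 without replicate 1 and -0.76 without control replicate 3. Dnajb3, a testis-enriched member, had 4.76 and 11.4 against 14.9 and 15.9. The nuclear histone chaperone Dnajc9 (180 and 199 against 181 and 191 CPM), the HSP90-linked Dnajc7 (86.0 and 87.9 against 80.1 and 89.4) and the spliceosomal Dnajc17 (8.29 and 9.25 against 8.01 and 9.59) each overlapped between groups, with log2 fold changes of 0.03, 0.04 and -0.01.

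The other 7 cytosolic and nuclear J-domain genes did not pass. Dnajc12 was the lowest of them in level (1.76 and 2.23 against 3.66 and 3.08 CPM, log2 fold change -0.75) and Dnajc8, a splicing-associated protein, the highest (262 and 244 against 202 and 212, 0.29). In both the groups did not overlap. The neuronal-enriched Dnajb2 had 67.8 and 83.7 against 123 and 84.7 CPM, below both controls (-0.45), and Dnaja2, a class A partner of HSP70, had 131 and 136 against 148 and 155 (-0.18). The ribosome-associated Dnajc2 (-0.34), the diphthamide synthesis gene Dnajc24 (-0.25) and the ribosome biogenesis gene Dnajc21 (-0.11) made up the rest.

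In the ER, the HSP70 gene Hspa5 (ENSMUSG00000026864, chr2:34627490-34632051) had 1843 and 541 CPM against 485 and 422 in the controls. Replicate 1 held 3.40 times the level of replicate 2, which lay just above the controls. The log2 fold change was 1.40 (SE 0.56, adjusted p = 0.419), or 0.26 without replicate 1 (adjusted p = 0.912) and 2.01 without replicate 2 (adjusted p = 0.00197). Hsp90b1, whose promoter carries 2 copies of the same element, had 456 and 248 against 248 and 294 CPM. Here replicate 2 was level with the lower control, and the log2 fold change of 0.37 (SE 0.33, adjusted p = 0.567) became -0.13 without replicate 1. Dnajc3, the other gene with the element, had 45.9 and 57.5 against 55.5 and 48.8 (-0.01, SE 0.21, adjusted p = 0.978).

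Dnajb9 (ENSMUSG00000014905, chr12:45306884-45311055), the J-domain protein ERdj4 that targets misfolded ER proteins for degradation and restrains the stress sensor IRE1, had 36.4 and 13.4 CPM against 6.85 and 6.63 in the controls. Both were above both controls, with a mean of 24.9 ± 16.3 against 6.74 ± 0.155 CPM (SD, n = 2 per group). In edgeR its log2 fold change was 1.88 with SE 0.48 (adjusted p = 0.314), and 0.99 without replicate 1 (adjusted p = 0.124). DESeq2 (adjusted p = 0.00488) and the likelihood ratio test (0.0175) called it, and over the 13 alternatives the adjusted p ran from 6.47e-05 to 0.536.

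The remaining 10 J-domain genes of the ER lay between log2 fold changes of -0.51 and 0.84. Dnajc1, a ribosome-bound ER protein, had 15.5 and 8.66 against 6.09 and 7.37 CPM (0.84, SE 0.35, adjusted p = 0.43). Dnajc10, the disulphide reductase ERdj5, had 23.9 and 36.7 against 44.3 and 41.9, below both controls (-0.51, SE 0.26, adjusted p = 0.439). Dnajb11, a soluble cofactor of BiP, had 77.1 and 72.4 against 78.4 and 84.1, and the membrane protein Dnajb12 had 38.9 and 36.0 against 31.6 and 27.1. Its close relative Dnajb14 had 7.40 and 6.92 against 4.31 and 5.75 (0.51, SE 0.30), again above both controls. Dnajc16, Dnajc14, Dnajc25 and Dnajc18 had log2 fold changes of -0.47, -0.42, -0.20 and 0.17, and the microsomal HSP70 gene Hspa13 had 11.4 and 12.4 against 14.2 and 13.2 CPM (-0.20). Summed over the 14 ER members, the level was 2613 and 1109 CPM against 1064 and 1031 in the controls, of which Hspa5 was the largest part.

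**Figure D4:**
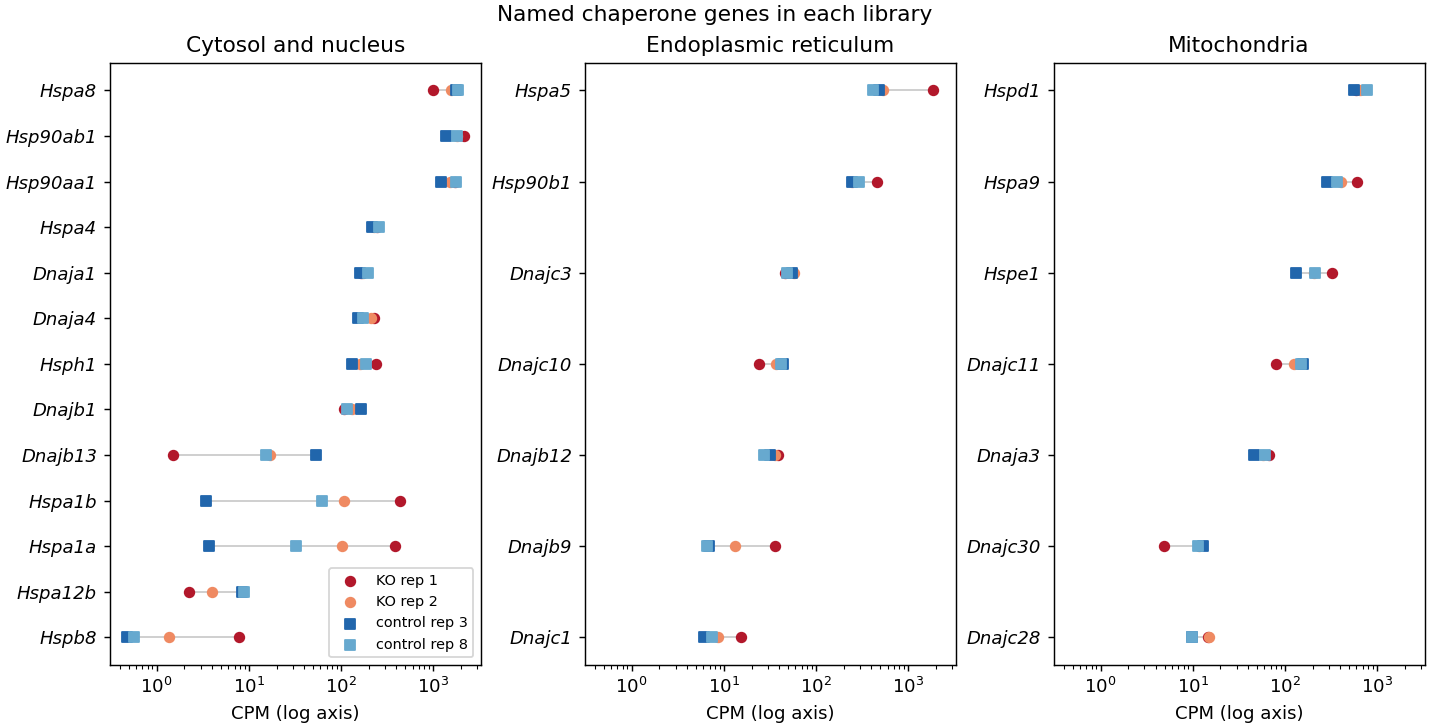
CPM on a log axis of the 27 named members in each library, with circles for the knockout-labelled and squares for the control libraries, by compartment. Knockout-labelled replicate 1 is the highest point for Hspa1a, Hspa1b, Hspb8, Hspa5 and Dnajb9, and the controls of Hspa1a lie at 3.73 and 32.4.

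In mitochondria, Hspa9 (ENSMUSG00000024359, chr18:35097068-35114011), the matrix HSP70 mortalin, had 612 and 409 CPM against 286 and 371 in the controls. Its groups did not overlap, at a log2 fold change of 0.64 (with SE 0.28, adjusted p = 0.433). Hspe1 and Hspd1 encode the partners of the folding ring. Hspe1 (chr1:55144976-55148151) had 327 and 207 CPM against 131 and 211, and Hspd1 (chr1:55134679-55145087) had 592 and 655 against 570 and 778. Both overlapped between groups, at log2 fold changes of 0.64 (SE 0.33, adjusted p = 0.439) and -0.11 (SE 0.25, adjusted p = 0.826). The ends of their gene models overlap by 112 bases on opposite strands, where reads of the pair cannot be told apart without strand.

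The 6 mitochondrial J-domain genes ran from -0.56 to 0.61. Dnaja3, the matrix partner of mortalin, had 67.5 and 57.7 CPM against 46.6 and 60.8 (0.22, SE 0.22, adjusted p = 0.606). Dnajc28 had close replicates, 14.8 and 15.2 against 9.86 and 9.78 CPM, above both controls (0.61, SE 0.22, adjusted p = 0.411). Dnajc11, a protein of the cristae-organising complex, had 80.8 and 127 against 156 and 150, below both (-0.56, SE 0.26, adjusted p = 0.433). Dnajc19, of the import motor, had 30.1 and 30.3 against 33.9 and 34.6, its relative Dnajc15 had 12.2 and 13.0 against 12.8 and 14.2, and the respiratory-chain protein Dnajc30 had 4.89 and 11.7 against 12.8 and 11.3. Summed over the 9 members the level was 1742 and 1527 CPM against 1259 and 1642, with overlapping groups.

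Among the 6 members outside these compartments, Dnajc5, the cysteine string protein of secretory vesicles, had 176 and 97.9 CPM against 88.6 and 88.0 (0.63, SE 0.30, adjusted p = 0.433). Hspg2 had 3.56 and 6.38 against 2.07 and 2.28 (1.19, SE 0.41, adjusted p = 0.393), higher in replicate 2 than in replicate 1. The endosomal Dnajc13 had 65.1 and 71.1 against 76.5 and 76.1, below both controls by a small margin. Hspb11, Dnajc4 and Dnajc27 had log2 fold changes of 0.71, 0.11 and -0.25.

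The partners and regulators of these chaperones were read from lists. Of the heat shock factor genes Hsf1 and Hsf2 and the factor-binding gene Hsbp1, 0 passed at either threshold, and Hsf1 itself had 36.1 and 33.6 CPM against 34.3 and 37.9 (log2 fold change -0.05, SE 0.19). Hsbp1 and Hsf2 had -0.39 (SE 0.20) and -0.38 (SE 0.39). Of 25 HSP70 and HSP90 cofactors 0 were called. Lower at an unadjusted p below 0.05 were 0 of them (2.08% of all genes), and 1 was higher (9.82%). That gene was Bag3, the heat-inducible partner of HSPB8, with 21.2 and 13.4 CPM against 6.53 and 9.17 (1.13, SE 0.33, adjusted p = 0.354), and the list median was -0.17. Stub1, the ubiquitin ligase CHIP, had 4.86 and 5.78 against 9.32 and 7.50 (-0.66, SE 0.29, adjusted p = 0.433).

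In the cytosolic chaperonin and prefoldin list 1 of 13 genes, Pfdn5, was higher at an unadjusted p below 0.05 (0.54, SE 0.20) and the median was -0.04, while the prefoldin subunit gene Vbp1 had 0.59 (SE 0.25). Among 15 ER cofactors that gene was the translocon gene Sec62 (455 and 311 CPM against 241 and 211, adjusted p = 0.39), followed by Sdf2 (0.53), and the ER HSP110 gene Hyou1 had 62.7 and 47.0 against 53.5 and 63.8. Among 12 mitochondrial cofactors and proteases it was the protease gene Lonp1 (296 and 184 CPM against 129 and 159, log2 fold change 0.73, SE 0.28), followed by Clpx (0.46). None of these 3 lists had a member lower at an unadjusted p below 0.05, and edgeR's quasi-likelihood test called 0 genes in each.

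Markers of other cells and early response genes were read beside the values of knockout-labelled replicate 1. The 7 of 10 neutrophil marker symbols found in the table summed to 305 and 37.3 CPM against 41.1 and 45.3 in the controls, and the 8 of 8 megakaryocyte markers to 186 and 115 against 66.0 and 95.9. Of the megakaryocyte markers 3 were higher and 0 lower at an unadjusted p below 0.05, with a median log2 fold change of 1.19. Macrophage markers (9 of 11 symbols) summed to 51.4 and 26.5 against 54.1 and 31.7, with 5 of them lower and 0 higher at an unadjusted p below 0.05. Lyz2, which neutrophils also express, made up 43.1 CPM of the sum in replicate 1, and the other 8 summed to 8.35 and 18.2 against 44.4 and 20.8. Hepatoblast markers (6 of 10) summed to 57.2 and 66.1 against 121 and 48.2. No measured marker of these lists was at 0 in any library. Of 10 immediate-early genes, which respond within minutes to stress and to cell handling, 4 were higher and 1 lower at an unadjusted p below 0.05. For these and the marker counts above, 9.82% of all genes were higher and 2.08% lower at that threshold. Jun had 92.1 and 14.7 CPM against 1.99 and 6.65, the same order of libraries as Hspa1a and Hspa1b. Atf3 had 5.45 and 1.68 against 0.218 and 0.275. The lower gene was Ier3 (12.5 and 19.6 against 37.9 and 27.7). Dusp1 (28.2 and 65.3 against 99.3 and 74.6) and Btg2 (208 and 325 against 347 and 300) were also lowest in knockout-labelled replicate 1. Summed over the 10 genes, the level was 418 and 471 CPM against 520 and 446. The part of these cells and of handling in the chaperone values was not tested.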

How the data were processed

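Raw counts per gene from 4 libraries, 2 per group, were analysed as the authors deposited them, beside each p-value of the authors' own comparison. Both deposited count tables agree in all 10716 rows. Tools named in the submitters' processing notes include Trimmomatic 0.30, TopHat2 2.0.8 and Bowtie2 2.1.0.0, with NCBIM37 as the build. Strand and the treatment of shared reads are not given in the sources used here.

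Groups were compared with edgeR 4.0.16 under R 4.3.3 (filterByExpr, TMM scaling, robust quasi-likelihood F test in legacy mode, two-sided). Adjustment was by Benjamini-Hochberg over the whole table at a threshold of 0.05, and the code was tested on simulated data. The standard error is the absolute log2 fold change over the square root of F. Each p-value measures only the spread of these libraries, which may be technical. Levels are CPM of the TMM-scaled library, and single-library differences are in log2 CPM (prior count 2).

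Alternatives were RLE scaling, no scaling, no filter, a stricter filter (1 CPM throughout 1 group), DESeq2 1.42.0, limma-voom (limma 3.58.1), the likelihood ratio test, legacy=FALSE, robust=FALSE and leaving out each library. The fit with no filter repeats the main fit, because the default filter kept all 10716 genes. Named members are the 5 with the smallest p in each compartment, the highest and lowest there, and the main family members, and others may be named with their values. From each list of partner genes the 2 with the smallest p are named, and Hsf1 and Hyou1 were added after their values were seen. The members and lists were chosen with earlier results of these data known.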

Additional observations from a re-analysis of the deposited data

How the results depend on the processing

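The count of 11 genes called over the whole table was 87 in the unscaled fit, 374 by DESeq2 and 349 by the likelihood ratio test, and it ran from 27 to 3492 when 1 library was left out. The count of 0 chaperone members became 3 by DESeq2 and 4 by the likelihood ratio test, and ran from 0 to 16 when 1 library was left out. Members higher at an unadjusted p below 0.05 ran from 2 to 14 and those lower from 1 to 11 over the libraries left out, and the lower count was 2 in limma-voom, DESeq2 and the unscaled fit. The median log2 fold change of all members was 0.02 with RLE scaling and with DESeq2 (0.0246 and 0.0245), -0.04 without library scaling (-0.036), and from 0.0093 to 0.11 without 1 library. That of cytosolic members was -0.0388 without library scaling and -0.041 to 0.11 without 1 library. Without 1 library that of mitochondrial members ran from -0.16 to 0.12. That of ER members ran from 0.0026, without knockout-labelled replicate 1, to 0.13, without control replicate 3.

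The sign of the log2 fold change turned for Hspa4 with RLE scaling (-0.00245), without scaling (-0.0697) and with DESeq2 (-0.00251), and for Dnajc7 (-0.0333) and Dnajc9 (-0.0388) without scaling. With 1 library left out it turned for Hspa4 (-0.10 to 0.11), Dnaja1 (-0.21 to 0.058), Dnajb1 (-0.46 to 0.033), Dnajc3 (-0.20 to 0.14), Hsp90aa1 (-0.13 to 0.40), Hsp90b1 (-0.13 to 0.74), Hspd1 (-0.32 to 0.12), Hspb6 (-0.45 to 0.88), Dnajc4 (-0.042 to 0.27), Dnajc7 (-0.041 to 0.11), Dnajc9 (-0.061 to 0.099), Dnajc17 (-0.13 to 0.12), Dnajc25 (-0.48 to 0.019) and Dnajc27 (-0.57 to 0.074). The causes were not tested. No paired analysis was possible because the groups share no replicate number. Depth limits members of few counts such as Hspb8, which had 13 and 27 counts in the controls.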
